A study of Mus musculus with 7 samples.

Results

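The genes described here encode late proteins of the cornified envelope and the enzymes that cross-link them. They were taken from the deposited table by position and name: the genes of one interval of chromosome 3, leaving out those named Sprr or S100, together with every gene named Tgm and a number. This gave 32 of the 7091 genes in the table, 28 on chromosome 3 and 4 Tgm genes, and left out 16 Sprr and S100 genes of the same interval. The chromosome 3 genes found span 92014583 to 93399442 on the mouse build mm10 (GRCm38). No measured value entered the choice. However, the table itself lists only genes that the authors found to differ between the groups, so no member could be unchanged by their test.

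The series used bulk RNA sequencing of epidermis, taken off skin whose hair follicles were resting (telogen), from 4 KA mice and 3 controls. All carried a conditional allele of Abca12, the gene of a lipid transporter that keratinocytes need for the lipid layers of the skin barrier (labelled ABCA12-c/c in controls and ABCA12-cKO in KA mice). KA mice also carried K14-CreERT, a recombinase that tamoxifen activates and that the keratin 14 promoter expresses in basal keratinocytes, while controls had no CreERT. All mice received tamoxifen from 8 weeks of age (1 mg for each 40 g of mouse, given on 3 days) and were sampled 2 weeks later. KA 1 and KA 2 were males, KA 3 and KA 4 females, control 2 a male, and controls 1 and 3 females. The comparison thus holds the deletion together with an active recombinase, and effects of the recombinase alone cannot be told apart. The targeted gene was not analysed here, and the genotypes are taken as labelled. Animal numbers were 4857, 4853 and 4875 for controls 1, 2 and 3. They were 4855 and 4854 for the KA males and 4876 and 4877 for the KA females. Differences between KA males and females therefore cannot be told apart from differences between these runs of animal numbers.

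In the outer epidermis, dying keratinocytes replace their membrane by a protein shell, the cornified envelope. Involucrin and loricrin, the late cornified envelope (LCE) proteins and others are joined to it by transglutaminases, which form bonds between glutamine and lysine residues. The fused-type S100 proteins (filaggrin, filaggrin 2, hornerin, repetin and their relatives) join a calcium-binding head to long repeats. Most of these genes lie side by side on mouse chromosome 3 in the epidermal differentiation complex.

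The locus did not move one way. By mean, 17 of the 32 genes were higher in KA and 15 lower. The Lce genes divided by family: 6 of 7 Lce1 genes and Lce6a were lower, and all 6 Lce3 genes were higher. Among the fused-type genes Flg, Hrnr and Rptn were higher and Flg2 was lower. Loricrin fell while involucrin rose, and 3 of the 4 transglutaminase genes rose. Levels are given as the authors' normalized reads, which are counts divided by a size factor for each library, so only levels given per kb compare one gene with another.

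Control levels of the set ran from no reads at all (Lce3a, Lce3b and Lce3e) to a mean of 74565.5 normalized reads (Lor). Reads in listed genes came to 9590718 to 12761458 per library. This is the total over the listed genes and not the sequencing depth. Each library came from a different mouse, and no pair of the same group agreed within sampling noise. Of these 32 genes, 28 had enough reads to be tested with edgeR's quasi-likelihood test and Benjamini-Hochberg adjustment, and Lce3a, Lce3b, Lce3e and Gm4858 had not. All 28 passed at an adjusted p under 0.05, 14 higher and 14 lower. Over all listed genes tested 100% passed (6758 of 6761), 52.5% higher and 47.5% lower, so passing says nothing particular about these genes. Of the 28 genes, 24 changed by at least 1 on the log2 scale, against 41.3% of all genes tested, and the median size was 2.29 against 0.85. The median with its sign was -0.37 for the 28 genes and 0.36 for all genes tested. Control and KA values were fully separated in 26 of the 32 genes, against 93.3% of all listed genes. In bulk epidermis, fewer cells that make an RNA and less RNA in each cell cannot be told apart.

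**Figure D1:**
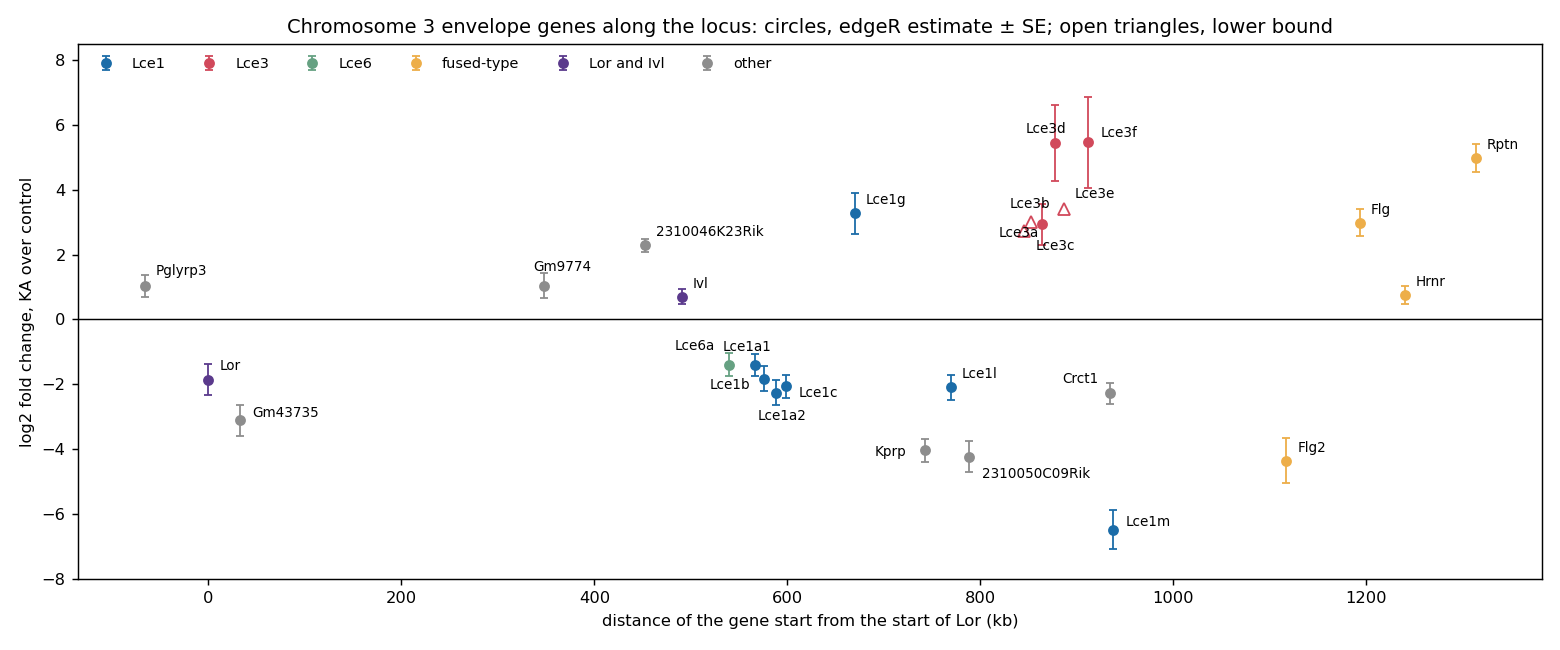
Log2 fold change of KA over control (vertical axis) against distance from the start of Lor in kb (horizontal axis) for the chromosome 3 genes, coloured by family. Circles are edgeR estimates with their standard errors, open triangles are lower bounds for Lce3a, Lce3b and Lce3e, which had no control reads, and Gm4858 is not drawn; the Lce3 genes lie above 0 and the Lce1 genes below it except Lce1g.

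Loricrin, the glycine-rich protein that makes up most of the envelope's mass, had the highest mean per kb of the set in both groups, although 2310046K23Rik exceeded it in KA 1 and KA 4. Lor (ENSMUSG00000043165, chr3:92080271-92083142, minus strand) had 63459, 53087 and 107151 normalized reads in controls 1, 2 and 3. It had 10995, 20858, 40181 and 10607 in KA 1, 2, 3 and 4. All KA libraries lay below all controls, with KA 3 closest to them. Lor fell 3.61-fold, with means of 74565.5 ± 28692 (SD, n = 3) in controls and 20660 ± 13851 (SD, n = 4) in KA and a log2 fold change of -1.85 (SE 0.48, edgeR adjusted p = 0.00609). Involucrin, a glutamine-rich scaffold laid down early in envelope assembly, went the other way. Ivl (ENSMUSG00000049128, chr3:92570902-92573735, minus strand) had 1804, 2247 and 1516 normalized reads in controls 1 to 3, against 2969, 2529, 4309 and 2314 in KA 1 to 4. The groups did not overlap, but KA 4 lay just above control 2. Ivl rose 1.63-fold, with means of 1856 ± 369 (SD, n = 3) in controls and 3030 ± 895 (SD, n = 4) in KA and a log2 fold change of 0.71 (SE 0.22, edgeR adjusted p = 0.0112). KA 3 held the highest KA value of both precursors.

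Within a library, the ratio of Ivl to Lor does not depend on the scaling between libraries. Per kb it was 0.0263, 0.0392 and 0.0131 in controls 1 to 3, against 0.250, 0.112, 0.0993 and 0.202 in KA 1 to 4. Loricrin RNA thus remained above involucrin RNA in every library, by a smaller factor in each KA library than in any control. Per kb, Lor averaged 41914 normalized reads in controls and 11613 in KA, and Ivl 966 and 1577.

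The 7 Lce1 genes in the table fell except Lce1g. The mouse annotation (GENCODE M21) holds 14 Lce1 genes, and the other 7 (Lce1d, Lce1e, Lce1f, Lce1h, Lce1i, Lce1j and Lce1k) were not analysed here. Lce1 proteins are small, cysteine-rich and glycine-rich substrates of transglutaminase that enter the envelope late. Summed over the 7 genes, normalized reads were 7052, 6173 and 14689 in controls 1 to 3, against 459, 817, 705 and 463 in KA 1 to 4. In controls most of this was Lce1m. Without it the sums were 1339, 1160 and 2808 in controls and 435, 770, 558 and 347 in KA. The KA sums stayed below every control sum on both counts.

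Lce1m (ENSMUSG00000027912, chr3:93017810-93019060, minus strand) showed the largest fall of the set. It had 5714, 5013 and 11881 normalized reads in controls 1 to 3, against 23.7, 47.3, 147 and 116 in KA 1 to 4. The KA values spanned 6.20-fold, with both males below both females, and none came near a control. The mean fell 90.1-fold, with means of 7536 ± 3779 (SD, n = 3) in controls and 83.7 ± 57.8 (SD, n = 4) in KA and a log2 fold change of -6.49 (SE 0.60, edgeR adjusted p = 5.42e-05). Per kb it was the second most abundant RNA of the set in controls and ranked 17 of the 32 in KA. Its transcript shares no stretch of 50 bases with another gene, so near-identical copies do not divide its reads at that length.

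The promoters of Lor and Lce1m, the precursor and the Lce gene with the largest falls, are shown as the 250 bases before the start site (RefSeq, GRCm38.p6, 5′ to 3′ on the gene's strand). Lor is at chr3:92083143-92083392, minus strand, and Lce1m at chr3:93019062-93019311, minus strand. Capitals mark a TATA box (TATAAA) and an AP-1 motif (TGANTCA, where N is any base).
Lor: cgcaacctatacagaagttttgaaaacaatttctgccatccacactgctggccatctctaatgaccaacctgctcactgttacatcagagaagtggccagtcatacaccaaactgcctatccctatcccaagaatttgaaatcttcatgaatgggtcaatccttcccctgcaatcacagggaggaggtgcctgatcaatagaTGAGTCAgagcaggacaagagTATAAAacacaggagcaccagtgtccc
Lce1m: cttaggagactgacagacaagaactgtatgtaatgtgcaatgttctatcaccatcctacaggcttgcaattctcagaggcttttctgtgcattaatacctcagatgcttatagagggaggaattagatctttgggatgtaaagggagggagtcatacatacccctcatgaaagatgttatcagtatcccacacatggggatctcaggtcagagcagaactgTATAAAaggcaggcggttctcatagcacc
The TATA box begins 27 bases before the start of Lor and 29 before that of Lce1m. Lor has an AP-1 motif 48 bases before its start, and the Lce1m window has no AP-1 match.

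The other falling Lce1 genes were less abundant. Lce1a2 had 349, 318 and 832 normalized reads in controls 1 to 3, against 82.1, 152, 121 and 64.4 in KA 1 to 4. Lce1c had 286, 254 and 691 in controls and 88.0, 137, 96.1 and 71.6 in KA. For both genes all KA libraries lay below all controls, and control 3 stood well above the other controls. Lce1a2 fell 4.76-fold (log2 fold change -2.26, SE 0.39, edgeR adjusted p = 0.000661) and Lce1c 4.17-fold (-2.07, SE 0.36, edgeR adjusted p = 0.000614). Without control 3 these log2 fold changes were -1.67 and -1.46. Lce1l had 68.2, 69.1 and 140 normalized reads in controls and 11.9, 27.0, 26.1 and 21.8 in KA, a 4.26-fold fall (log2 fold change -2.10, SE 0.37, edgeR adjusted p = 0.00062).

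Lce1b had 249, 235 and 508 normalized reads in controls 1 to 3, against 77.2, 163, 71.0 and 64.4 in KA 1 to 4. KA 2 stood apart from the other KA libraries, still below all controls. Lce1b fell 3.52-fold (log2 fold change -1.82, SE 0.37, edgeR adjusted p = 0.00151). Lce1a1 had 386, 278 and 629 normalized reads in controls and 136, 225, 197 and 95.5 in KA, and fell 2.64-fold (log2 fold change -1.40, SE 0.33, edgeR adjusted p = 0.00298). The 6 falls thus ranged from 2.64-fold to 90.1-fold. Lce6a, a more distant relative that lies before the first Lce1 gene, also fell. It had 89.0, 68.0 and 111 normalized reads in controls and 26.7, 57.5, 32.4 and 20.8 in KA, a 2.61-fold fall (log2 fold change -1.39, SE 0.35, edgeR adjusted p = 0.00417).

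Lce1g (ENSMUSG00000027919, chr3:92750148-92752338, minus strand) was the Lce1 gene that rose. It is named here although it did not reach the level set for naming Lce1 genes, a mean of 50 normalized reads in the higher group. It had 0, 6.19 and 7.22 normalized reads in controls 1 to 3, against 40.6, 64.2, 46.0 and 29.1 in KA 1 to 4. Raw counts were 0, 6 and 9 in controls and 41, 57, 44 and 28 in KA. Every KA library lay above every control, at a low level. The mean rose 10.1-fold (log2 fold change 3.27, SE 0.62, edgeR adjusted p = 0.00089). Of the 50-base stretches of its transcript, 18.4% also occur in other genes, Lce1 genes among them, but 1.69% of the 100-base stretches do. For the falling Lce1 genes the 50-base share ran from 0% (Lce1m) to 25.2% (Lce1a1). Their 100-base share was at most 2.15% (Lce1a1). The length of the reads and the treatment of reads with several matches are not given in the sources used here.

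Lce1c and Lce1g are shown side by side because their promoters are alike and their RNA went opposite ways. The windows are the 250 bases before each start (RefSeq, GRCm38.p6), at chr3:92678997-92679246, plus strand, and chr3:92752339-92752588, minus strand.
Lce1c: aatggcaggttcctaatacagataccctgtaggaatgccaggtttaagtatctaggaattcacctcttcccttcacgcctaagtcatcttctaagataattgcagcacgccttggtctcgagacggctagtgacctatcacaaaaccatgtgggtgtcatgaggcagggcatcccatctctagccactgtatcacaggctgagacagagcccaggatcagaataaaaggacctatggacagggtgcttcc
Lce1g: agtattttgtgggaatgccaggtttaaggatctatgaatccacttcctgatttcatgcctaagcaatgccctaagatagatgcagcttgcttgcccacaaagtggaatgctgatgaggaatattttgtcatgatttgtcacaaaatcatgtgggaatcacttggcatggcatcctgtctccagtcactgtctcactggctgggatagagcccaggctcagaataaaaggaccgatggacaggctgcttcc
No letter is in capitals, since none of the 6 motifs searched occurs in either. Aligned with 50 further bases after the start, the windows were 70.6% identical. Over the 21 pairs of Lce1 genes identity ran from 43.8% to 73.6%, so this pair is among the closest. Whether likeness of promoters bears on the direction of change was not tested. The closest pair, Lce1a1 and Lce1a2, fell together.

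**Figure D2:**
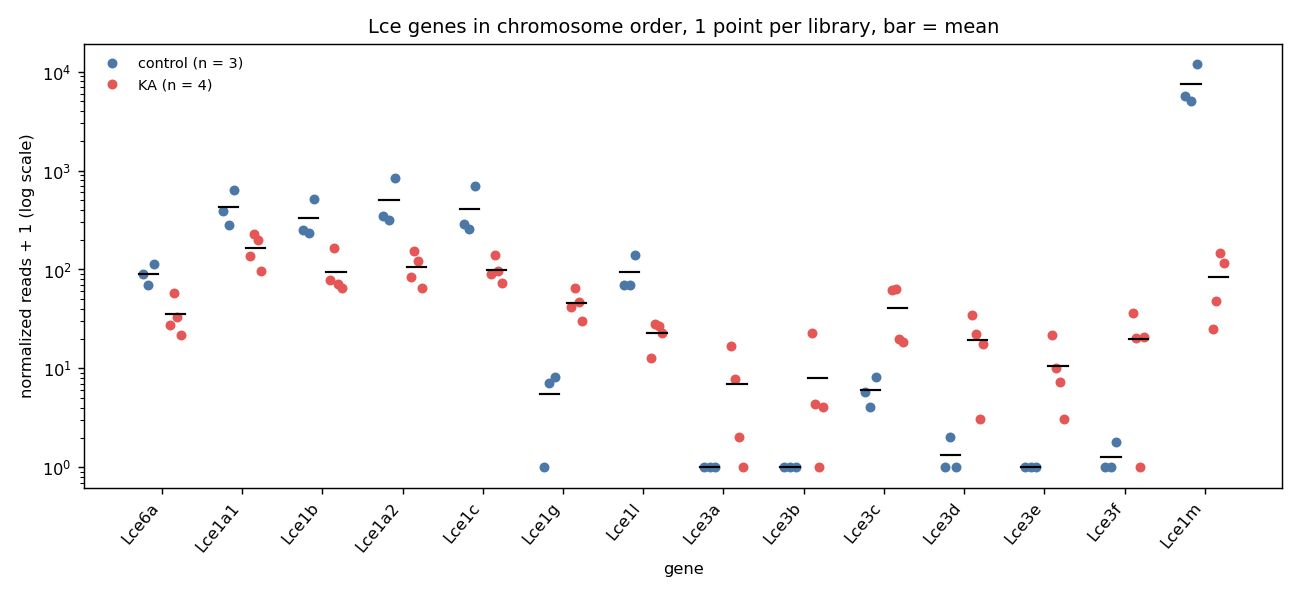
Normalized reads + 1 on a log axis for the 14 Lce genes in chromosome order, with 1 point per library (blue, 3 controls; red, 4 KA) and a bar at the group mean. The Lce1 genes and Lce6a lie lower in KA except Lce1g, and the Lce3 genes lie near 0 in controls and higher in KA.

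All 6 annotated Lce3 genes were in the table, and all were nearly silent in controls. LCE3 proteins resemble those of the Lce1 group and are known in human skin for their induction after barrier injury and in psoriasis. Summed normalized reads over the 6 genes were 4.73, 4.12 and 8.02 in controls 1 to 3, against 188, 123, 28.2 and 59.2 in KA 1 to 4. KA 1 had the highest value of 5 of the 6 genes. The Lce3 sum stayed below the Lce1 sum in every KA library. None of the 6 reached a mean of 50 normalized reads, so they are named with values chosen after those were seen.

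Lce3c (ENSMUSG00000045475, chr3:92944486-92945733, plus strand) was the most abundant of them. It had raw counts of 5, 3 and 9 in controls 1 to 3, against 61, 56, 18 and 17 in KA 1 to 4, with no overlap between groups. It rose 7.97-fold, with means of 5.01 ± 2.08 normalized reads (SD, n = 3) in controls and 40.0 ± 25.1 (SD, n = 4) in KA and a log2 fold change of 2.93 (SE 0.62, edgeR adjusted p = 0.00161). The males KA 1 and KA 2 lay above the females KA 3 and KA 4. Lce3d had counts of 0, 1 and 0 in controls and 34, 19, 2 and 16 in KA, a ratio of 60.9 after scaling (exact 95% interval 10.6 to 2437). Lce3f had counts of 0, 0 and 1 in controls and 36, 17, 0 and 19 in KA, a ratio of 61.7 (10.7 to 2471). KA 3 was low in both, and in Lce3f it overlapped the controls. Both genes passed (edgeR adjusted p = 0.00177 for Lce3d and 0.00476 for Lce3f), but their fitted log2 fold changes of 5.43 and 5.46 rest on 1 control read each. Without control 2 the Lce3d estimate was 7.25, and without control 3 that of Lce3f was 7.20.

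Lce3a, Lce3b and Lce3e had no reads in any control. In KA 1 to 4, Lce3a had counts of 16, 6, 1 and 0, Lce3b of 22, 3, 0 and 3, and Lce3e of 21, 8, 6 and 2. Against a floor of 3 counts over the control group, their KA means were at least 6.57-fold, 8.00-fold and 10.6-fold higher. These intervals and bounds pool the reads of a group, so they hold for counting error alone and leave out differences between mice. How PCR copies of a molecule were treated is not given in the sources used here. Lce3a and Lce3b overlapped the controls because 1 KA library of each had no read. The Lce3 genes resemble each other: of 100-base stretches, 24.1% of Lce3c, 28.3% of Lce3d, 36.4% of Lce3e and 43.0% of Lce3f occur in another Lce3 gene, against 0% of Lce3a and 1.08% of Lce3b. Read length is not given, and of 50-base stretches 19% of Lce3a and 12.1% of Lce3b also occur in another Lce3 gene. The division of reads between the Lce3 genes is therefore uncertain, most of all between the 4 genes Lce3c, Lce3d, Lce3e and Lce3f. All 4 were higher in KA.

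The Lce3c window shows the promoter of the most abundant Lce3 gene (RefSeq, GRCm38.p6, chr3:92944236-92944485, plus strand). Capitals mark the core of an antioxidant response element (TGACNNNGC), which lies on the opposite strand in both places.
Lce3c: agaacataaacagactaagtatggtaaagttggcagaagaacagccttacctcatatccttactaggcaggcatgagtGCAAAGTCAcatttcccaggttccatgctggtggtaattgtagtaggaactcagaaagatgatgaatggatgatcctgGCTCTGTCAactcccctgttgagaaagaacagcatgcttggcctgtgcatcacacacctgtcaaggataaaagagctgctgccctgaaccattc
The matches lie 172 and 94 bases before the start, and Lce3d and Lce3e each have one at 97 and 95 bases. Promoter windows of the Lce3 genes were 50.1% to 82.4% identical over 15 pairs, and Lce1 windows matched Lce3 windows at 39.1% to 49.3% over 42 pairs.

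Of the 4 fused-type genes listed, 3 rose and 1 fell, and trichohyalin (Tchh), Tchhl1 and cornulin (Crnn) were not analysed here. Filaggrin binds keratin filaments and is later broken down to amino acids that hold water in the stratum corneum. Flg (ENSMUSG00000102439, chr3:93273523-93293686, plus strand) had 392, 387 and 499 normalized reads in controls 1 to 3, against 2639, 3010, 6136 and 1762 in KA 1 to 4. The lowest KA library lay well above the highest control. Flg rose 7.95-fold, with means of 426 ± 63.3 (SD, n = 3) in controls and 3387 ± 1906 (SD, n = 4) in KA and a log2 fold change of 2.99 (SE 0.41, edgeR adjusted p = 0.000316).

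Filaggrin 2, a neighbour of like structure whose gene ends 52.1 kb before Flg begins, fell. Flg2 (ENSMUSG00000049133, chr3:93197278-93221391, plus strand) had 7818, 6957 and 9578 normalized reads in controls 1 to 3, against 60.3, 226, 859 and 444 in KA 1 to 4. The KA values spanned 14.2-fold and all lay below the controls, which spanned 1.38-fold. Flg2 fell 20.4-fold, with means of 8118 ± 1336 (SD, n = 3) in controls and 397 ± 345 (SD, n = 4) in KA and a log2 fold change of -4.35 (SE 0.70, edgeR adjusted p = 0.000685). Without KA 3, the library with the most Flg2, the log2 fold change was -5.06.

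The pair changed places. The ratio of Flg to Flg2 per kb was 0.0554, 0.0614 and 0.0575 in controls 1 to 3, against 48.3, 14.7, 7.90 and 4.38 in KA 1 to 4. In controls the ratios lay close together and Flg2 was the more abundant RNA. In every KA library Flg was, by factors that spanned an order of magnitude. Much of each transcript repeats itself: 71.3% of the 100-base stretches of Flg, 55.5% of those of Flg2 and 67.3% of those of Hrnr occur more than once in the same transcript, and none in another gene. How reads from such repeats were counted is not given, so levels of these genes against others are uncertain.

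Repetin, a fused-type protein that transglutaminase also cross-links, showed the largest rise among genes with reads in all libraries. Rptn (ENSMUSG00000041984, chr3:93393699-93399442, plus strand) had 37.9, 59.8 and 46.5 normalized reads in controls 1 to 3, against 2539, 1576, 1071 and 870 in KA 1 to 4. The males KA 1 and KA 2 were the highest, and the groups were far apart. Rptn rose 31.5-fold, with means of 48.1 ± 11.0 (SD, n = 3) in controls and 1514 ± 745 (SD, n = 4) in KA and a log2 fold change of 4.98 (SE 0.43, edgeR adjusted p = 2.76e-05). Hornerin, a long filaggrin-like protein, moved least of the fused-type genes. Hrnr had 668, 965 and 926 normalized reads in controls and 1212, 952, 2282 and 1330 in KA, so that KA 2 lay below control 2. Its log2 fold change was 0.76 (SE 0.27, edgeR adjusted p = 0.0215). The call was lost under other library scalings, and without control 1 it was 0.61 (edgeR adjusted p = 0.0894).

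The promoters of Flg, Flg2 and Rptn are printed because they belong to neighbours of one structural type that moved apart. The windows are the 250 bases before each start (RefSeq, GRCm38.p6): Flg at chr3:93273296-93273545, plus strand, Flg2 at chr3:93197023-93197272, plus strand, and Rptn at chr3:93393449-93393698, plus strand. Capitals mark the AP-1 motif TGANTCA and the TATA box. In Rptn they also mark a grainyhead-type motif, AACNGGTT.
Flg: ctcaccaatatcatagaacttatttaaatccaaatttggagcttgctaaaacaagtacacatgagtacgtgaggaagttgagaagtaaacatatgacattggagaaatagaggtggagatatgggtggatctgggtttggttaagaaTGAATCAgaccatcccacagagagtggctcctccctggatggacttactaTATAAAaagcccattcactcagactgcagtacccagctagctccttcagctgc
Flg2: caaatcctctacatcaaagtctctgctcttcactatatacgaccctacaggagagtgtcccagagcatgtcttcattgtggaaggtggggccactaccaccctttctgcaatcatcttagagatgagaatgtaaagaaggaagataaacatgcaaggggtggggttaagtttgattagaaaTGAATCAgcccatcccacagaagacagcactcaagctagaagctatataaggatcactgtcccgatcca
Rptn: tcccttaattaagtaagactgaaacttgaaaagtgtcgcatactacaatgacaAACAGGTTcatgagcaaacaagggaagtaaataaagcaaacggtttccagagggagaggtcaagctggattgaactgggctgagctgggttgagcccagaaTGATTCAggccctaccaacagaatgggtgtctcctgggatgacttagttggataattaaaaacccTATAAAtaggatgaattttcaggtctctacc
Each has an AP-1 motif, 103, 69 and 96 bases before the start of Flg, Flg2 and Rptn. Over the motif and 10 bases on each side, Flg and Flg2 had 23 of 27 bases in common, Flg and Rptn 18, and Flg2 and Rptn 15. Of these pairs the sequence around the motif was closest between Flg, which rose, and Flg2, which fell. Any part of this sequence in the changes was not tested.

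In all, 6 motifs were searched on both strands in the windows of the 25 members that RefSeq's table held (14 higher and 11 lower in KA), with 50 bases after the start included. In 18 of these the start is within 1 base of that of the gene in the table, while the Tgm7 window lies 6601 bases and the Tgm1 window 434 bases from it. The AP-1 motif was in 5 of them (Flg, Flg2, Ivl, Lor and Rptn, 3 higher and 2 lower), against 7.81% of all 32851 windows. TATAAA was in 10 (6 higher and 4 lower), against 13.6% of all windows. The antioxidant response core TGACNNNGC was in 6, against 12.4%, and its first bases TGA are shared with the AP-1 motif. The STAT-type motif TTCNNNGAA was in 3 (Lce1l and the displaced Tgm1 and Tgm7 windows) against 8.30%, AACNGGTT in Rptn and Tgm5 against 2.09%, and the Klf-type motif GGGTGTGG in Ivl alone against 3.56%. These matches are letters in a window and describe no binding.

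**Figure D3:**
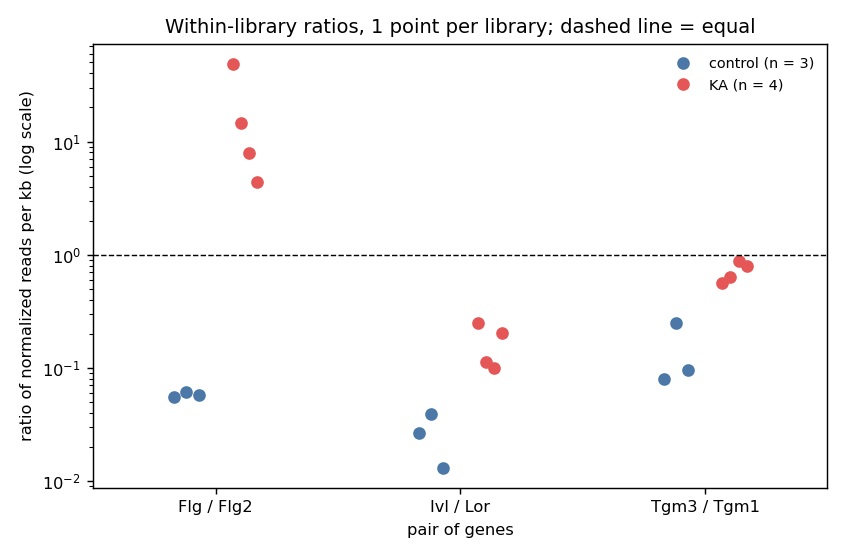
Ratio of normalized reads per kb within each library, on a log axis, for Flg over Flg2, Ivl over Lor and Tgm3 over Tgm1, with 1 point per library (blue, 3 controls; red, 4 KA) and a dashed line at equal levels. The Flg to Flg2 ratio lies below 1 in the controls and above 1 in all KA libraries, and the other ratios rise but stay below 1.

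Of the 7 annotated transglutaminase genes named Tgm, 4 were in the table. They lie outside the chromosome 3 locus. Transglutaminase 1, the membrane-bound enzyme that starts envelope cross-linking in keratinocytes, rose. Tgm1 (ENSMUSG00000022218, chr14:55700009-55713926, minus strand) had 1036, 962 and 1185 normalized reads in controls 1 to 3, against 2413, 1781, 1659 and 1745 in KA 1 to 4. The groups did not overlap and KA 1 stood above the other KA libraries. Tgm1 rose 1.79-fold, with means of 1061 ± 113 (SD, n = 3) in controls and 1899 ± 346 (SD, n = 4) in KA and a log2 fold change of 0.84 (SE 0.15, edgeR adjusted p = 0.000734). An antisense gene shares 5.76% of its exon bases, and no strand setting is given, so some reads may belong to that gene.

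Transglutaminase 3, a soluble enzyme of the upper epidermis and of the hair follicle, rose most. Tgm3 (ENSMUSG00000027401, chr2:130012349-130050399, plus strand) had 108, 315 and 149 normalized reads in controls 1 to 3, against 1774, 1484, 1906 and 1797 in KA 1 to 4. The KA libraries agreed closely, and control 2 was the highest control. Tgm3 rose 9.12-fold, with means of 191 ± 110 (SD, n = 3) in controls and 1740 ± 180 (SD, n = 4) in KA and a log2 fold change of 3.19 (SE 0.33, edgeR adjusted p = 4.97e-05). Per kb, Tgm3 was at 0.0797, 0.251 and 0.0963 of Tgm1 in controls 1 to 3 and at 0.562, 0.637, 0.879 and 0.787 in KA 1 to 4. The RNAs of these enzymes came closer to equal levels in KA without changing order.

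Tgm5 and Tgm7 are neighbours on chromosome 2, 7.72 kb apart on the same strand, and moved in opposite directions. Transglutaminase 5 also acts on envelope proteins, and its loss in people causes peeling of the skin. Tgm5 (ENSMUSG00000053675, chr2:121046111-121085841, minus strand) had 745, 794 and 1104 normalized reads in controls 1 to 3, against 1135, 1407, 1391 and 1560 in KA 1 to 4. KA 1 lay just above control 3. Tgm5 rose 1.56-fold, with means of 881 ± 194 (SD, n = 3) in controls and 1373 ± 177 (SD, n = 4) in KA and a log2 fold change of 0.64 (SE 0.17, edgeR adjusted p = 0.00471).

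Tgm7, a little-studied member of the family, was nearly lost. Tgm7 (ENSMUSG00000079103, chr2:121093565-121109795, minus strand) had 793, 483 and 618 normalized reads in controls 1 to 3, against 0, 13.5, 14.6 and 29.1 in KA 1 to 4. Raw counts in KA were 0, 12, 14 and 28. Every control exceeded every KA library by more than an order of magnitude. Tgm7 fell 44.2-fold, with means of 632 ± 155 (SD, n = 3) in controls and 14.3 ± 11.9 (SD, n = 4) in KA and a log2 fold change of -5.46 (SE 0.58, edgeR adjusted p = 7.91e-05). Without KA 4 the log2 fold change was -6.09. In controls its level per kb (294) was close to that of Tgm5 (279) and Tgm1 (335), and in KA it was 6.65 against 435 and 601.

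**Figure D4:**
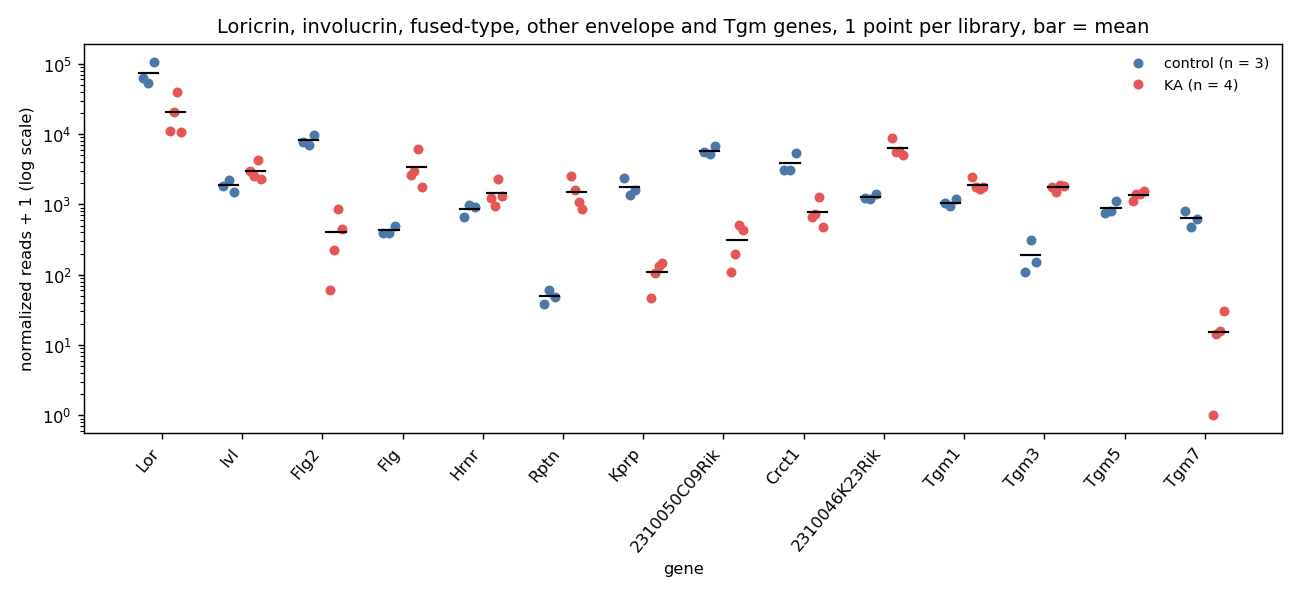
Normalized reads + 1 on a log axis for Lor, Ivl, the fused-type genes, 4 other abundant genes of the locus and the Tgm genes, with 1 point per library (blue, 3 controls; red, 4 KA) and a bar at the group mean. Lor, Flg2, Kprp, 2310050C09Rik, Crct1 and Tgm7 are lower in KA, and the other genes are higher, with overlap between groups in Hrnr.

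Other abundant genes of the locus fell too. Kprp encodes a proline-rich protein of the granular and cornified layers. It had 2372, 1339 and 1579 normalized reads in controls 1 to 3, against 45.5, 106, 133 and 147 in KA 1 to 4. No KA library came near a control. Kprp fell 16.3-fold, with means of 1763 ± 540 (SD, n = 3) in controls and 108 ± 45.0 (SD, n = 4) in KA and a log2 fold change of -4.03 (SE 0.35, edgeR adjusted p = 2.54e-05). The uncharacterised gene 2310050C09Rik had 5588, 5176 and 6696 normalized reads in controls and 107, 195, 506 and 434 in KA, with the males lowest. It fell 18.8-fold (log2 fold change -4.23, SE 0.48, edgeR adjusted p = 0.000128). Crct1, which encodes a small cysteine-rich protein, ends its gene 2.12 kb before Lce1m begins. It had 3033, 3038 and 5393 normalized reads in controls and 660, 737, 1271 and 473 in KA, a 4.87-fold fall (log2 fold change -2.28, SE 0.34, edgeR adjusted p = 0.000388). Its neighbour Lce1m fell 90.1-fold, so adjoining falling genes fell by different amounts.

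The gene 2310046K23Rik, which ends 36.4 kb before Ivl begins, rose instead. It had 1237, 1208 and 1383 normalized reads in controls 1 to 3, against 8751, 5498, 5730 and 4983 in KA 1 to 4. The controls were tightly grouped and all KA libraries far above them. It rose 4.89-fold, with means of 1276 ± 93.4 (SD, n = 3) in controls and 6241 ± 1703 (SD, n = 4) in KA and a log2 fold change of 2.29 (SE 0.20, edgeR adjusted p = 1.27e-05). Pglyrp3, which encodes a secreted protein that binds bacterial peptidoglycan, had 95.6, 53.6 and 82.6 normalized reads in controls and 247, 119, 89.8 and 175 in KA. KA 3 lay below control 1. Its log2 fold change was 1.03 (SE 0.35, edgeR adjusted p = 0.0159), and the call was lost without control 2 (0.83, edgeR adjusted p = 0.0589).

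The remaining members were low. The antisense gene Gm43735 averaged 34.9 ± 4.35 normalized reads (SD, n = 3) in controls and 3.90 ± 2.96 (SD, n = 4) in KA, and fell with a log2 fold change of -3.11 (SE 0.47, edgeR adjusted p = 0.000246), which was -3.76 without KA 4. Gm4858 had counts of 3, 6 and 6 in controls and a single read in KA, a ratio of 17.5 (exact 95% interval 2.69 to 737). Gm9774 averaged 18.5 ± 8.07 normalized reads (SD, n = 3) in controls and 39.0 ± 9.56 (SD, n = 4) in KA, with KA 4 below control 3. Its transcript is largely a copy of Adrm1, with 75.0% of its 100-base stretches found there. Adrm1 itself was higher in KA (log2 fold change 0.51, edgeR adjusted p = 0.00152), so the reads of Gm9774 are uncertain.

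Read along the chromosome from Pglyrp3 to Rptn, the 28 genes formed 9 runs of one direction by mean, with 8 changes between neighbours. Pglyrp3 was higher, Lor and Gm43735 lower, and then Gm9774, 2310046K23Rik and Ivl higher. The 5 genes from Lce6a to Lce1c fell over 60.8 kb. Lce1g rose alone, 69.2 kb from Lce1c on one side and 70.7 kb from Kprp on the other. The 3 genes Kprp, Lce1l and 2310050C09Rik fell over 47.1 kb. The 6 Lce3 genes, of which 3 passed the test and 3 were not tested, were higher by mean over 68.1 kb. Crct1, Lce1m and Flg2 fell over 207 kb, with Gm4858, which was not tested, lower by mean between them. Flg, Hrnr and Rptn rose over the last 126 kb. The Lce3 run was therefore flanked by falling genes on both sides, 55.1 kb from 2310050C09Rik and 20.8 kb from Crct1. Neighbours here are neighbours in the table: of 42 protein-coding genes annotated in the interval without Sprr and S100, 27 were in the table and 15 were not analysed here.

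Levels per kb show how the make-up of the locus shifted. In controls the order was Lor (41914 normalized reads per kb), Lce1m (7941), 2310050C09Rik (5399), Crct1 (4825), 2310046K23Rik (1885) and Ivl (966). In KA it was Lor (11613), 2310046K23Rik (9218), Ivl (1577), Crct1 (992), Tgm1 (601) and Tgm5 (435). The first places of this order overlap between libraries: Lor ranged from 5963 to 22586 per kb in KA, around the mean of 2310046K23Rik. Flg rose from 22.6 to 180 per kb and Rptn from 11.6 to 365, while Flg2 fell from 390 to 19.1 and Kprp from 646 to 39.5.

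**Figure D5:**
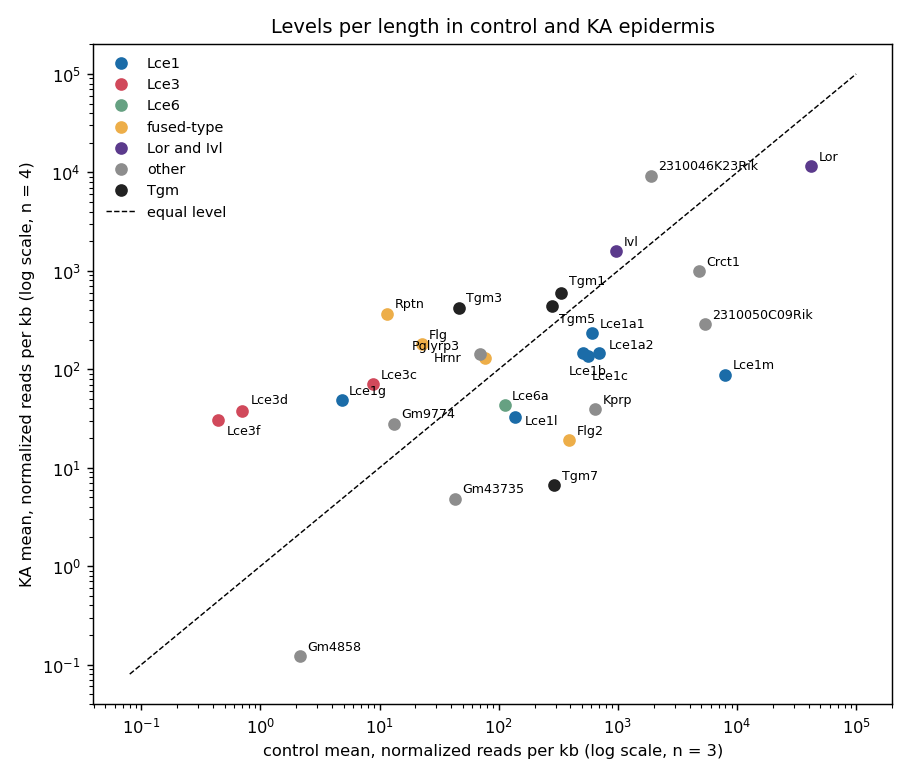
Mean normalized reads per kb of gene length in KA (vertical axis, n = 4) against control (horizontal axis, n = 3), both on log axes, with a dashed line at equal levels. Lor lies at the top right below the line, Lce1m, Flg2, Kprp and Tgm7 lie far below it, and Rptn, Flg, Tgm3 and the Lce3 genes above it; Lce3a, Lce3b and Lce3e had no control reads and are not drawn.

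Libraries of the same group also differed from each other within the set. Control 3 was the highest control for all 7 Lce1 genes and for 11 of the 15 genes that were lower in KA by mean, whereas it was the highest control in 30.2% of all listed genes that were lower. Control 3 was also the only control whose animal number (4875) lies next to those of KA 3 and KA 4 (4876 and 4877). Any part of the run of animal numbers in this was not tested. KA 2 was the highest KA library for 6 of the 7 Lce1 genes. Among the 15 lower genes, KA 1 was the lowest KA library in 7 and KA 4 in 7. Among the 17 higher genes KA 1 was the highest KA library in 10, which is near its share of 60.6% among all listed higher genes. KA 3 was the highest KA library for 9 of the 32 genes: Flg, Hrnr, Ivl, Lor, Flg2, Crct1, Lce1m, 2310050C09Rik and Tgm3. For the KA libraries, a share over all listed genes was worked out only for the 17 higher genes, so the other counts describe the set alone.

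Genes of the same pathways were read from lists, by how many were in the table and in which direction they passed. For comparison, the table holds 7091 of the 19407 genes that the authors adjusted over. Of all listed genes tested, 52.5% passed as higher and 47.5% as lower, so a near-even split says nothing particular about a list. Of 17 other envelope proteins 9 were in the table, 5 higher (Krt1, Cstb, Lgals7, Cnfn and Trex2) and 4 lower (Ppl, Cdsn, Sbsn and Pof1b), with a median log2 fold change of 0.91 against 0.36 over all genes tested. Krt1, a keratin of suprabasal cells, rose 5.24-fold (log2 fold change 2.39, SE 0.23, edgeR adjusted p = 2.01e-05). Cstb, a cysteine protease inhibitor, rose 3.43-fold (1.78, SE 0.21, edgeR adjusted p = 5.98e-05). Cdsn, the adhesion protein corneodesmosin, fell 2.84-fold (-1.51, SE 0.20, edgeR adjusted p = 0.000103).

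Of 19 genes that process or break down filaggrin 11 were in the table and 9 were tested. Of these, 5 were higher (Casp14, Klk14, Furin, Blmh and Padi4) and 4 lower (Prss8, Klk5, Capn1 and Spink5), with a median of 0.60. The groups overlapped in Klk5 and in Klk14, which averaged only 1.48 normalized reads in controls and 11.9 in KA. Casp14, the caspase of cornifying cells, rose 3.71-fold (log2 fold change 1.89, SE 0.18, edgeR adjusted p = 1.78e-05). Blmh, which frees amino acids from filaggrin peptides, rose 2.97-fold (1.57, SE 0.18, edgeR adjusted p = 6.21e-05). Spink5, an inhibitor of epidermal kallikreins, fell 2.63-fold (-1.40, SE 0.14, edgeR adjusted p = 2.91e-05). Of 7 genes of the cathepsin and cystatin system that acts on transglutaminases 3 were in the table: Cst6, which encodes cystatin M/E, rose 2.35-fold and cathepsin D (Ctsd) 2.45-fold, and cathepsin L (Ctsl) fell 2.33-fold (edgeR adjusted p = 0.000967, 0.000185 and 0.000209). Their median log2 fold change was 1.23.

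Of 28 regulators of envelope genes 18 were in the table, 7 higher (Ovol1, Tfap2a, Nfe2l2, Fosl1, Cebpa, Cebpb and Stat3) and 11 lower (Klf4, Grhl1, Gata3, Maf, Arnt, Arnt2, Ahr, Satb1, Fosl2, Fos and Jun), with a median of -0.38. Gata3, a factor of epidermis and hair follicle, fell 3.04-fold (log2 fold change -1.60, SE 0.19, edgeR adjusted p = 5.98e-05). Satb1, which organises chromatin at the epidermal differentiation complex, fell 3.50-fold (-1.81, SE 0.23, edgeR adjusted p = 0.000124). Cebpb, a factor of keratinocyte differentiation, rose 2.54-fold (1.34, SE 0.19, edgeR adjusted p = 0.000189). AP-1 subunits went both ways: Fosl1 was higher, with overlap between groups, and Fos, Fosl2 and Jun were lower.

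Markers of the cell types that separated epidermis can hold were read beside these results. The shares of all genes given for the pathway lists apply to these counts too. All 5 upper hair follicle markers (Krt79, Krt17, Cst6, Defb6 and Teddm3) were higher, with summed normalized reads of 80356 to 92351 in controls and 200950 to 281212 in KA. This was the only list with every gene in the table. It was chosen with earlier results of these data known, so the count is no independent evidence. Cst6 was also counted above in the cystatin system. Of 8 suprabasal markers 5 were in the table, Krt1 and Calm4 higher and Krt2, Krt77 and Sbsn lower. Their sums were 441562 to 454720 in controls and 369122 to 608545 in KA. These sums join opposite changes: Krt77 averaged 331574 in controls and 71149 in KA, and Krt1 58067 and 304320. Of 12 inner root sheath and hair shaft markers 3 were in the table. Gata3, also an epidermal gene, was lower, Krt71 had 0.947 to 7.22 normalized reads in controls and 6.23 to 51.2 in KA, and Padi3 had none in controls and 0.989 to 6.27 in KA. Of 7 macrophage and Langerhans cell markers 6 were in the table, 4 higher (Csf1r, Cd207, Cd74 and Lyz2) and 2 lower (Adgre1 and Cd68). Their sums were 11941 to 16212 in controls and 24111 to 36319 in KA. Most of each sum was Cd74, which averaged 12237 in controls and 28021 in KA. Of 6 T-cell markers 3 were in the table, Trac higher, with overlap between groups, and Cd3e and Trdc lower. Their sums were 662 to 859 in controls and 361 to 447 in KA. Of 6 endothelial markers Pecam1 was in the table and higher, at 11.4 to 17.6 and 34.5 to 55.4. None of 6 fibroblast and 6 neutrophil markers was in the table. The part of changed cell make-up in the higher values of Flg, Rptn, Tgm3 and the Lce3 genes and the lower values of Lor, the Lce1 genes other than Lce1g, Flg2 and Tgm7 was not tested.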

How the data were processed

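A single table covers the series. Per the file headers it gives raw read counts for each gene and the authors' normalized reads, a signal equal to the count over a size factor of the library. Further columns hold a mean of that signal, the log2 fold change with its error, a test score and p-values, raw and adjusted, all deposited by the authors. The submitters' processing notes name fastp, STAR 2.6.1d, featureCounts 1.5.0-p3, DESeq2 1.40.2 and mm10, without roles or order. Read length, strand setting and treatment of multiple matches are not given in the sources used here. Every one of the 7091 genes passed the authors' test at 0.05 (largest adjusted p-value 0.04995), out of 19407 genes that they adjusted over. The table is thus a selection made on these libraries, and a repeated test is no independent evidence. No column of another sample was present (0 columns).

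The raw counts went into edgeR 4.0.16 (R 4.3.3). The filter filterByExpr by group kept 6761 genes and left out 330. Libraries were scaled by the authors' size factors (0.888 to 1.247), and the quasi-likelihood test (robust glmQLFit, then glmQLFTest) was adjusted by Benjamini-Hochberg over the genes kept. Against TMM factors, this scaling moved log2 fold changes up by 0.134 in the median. Factors computed from a table of changed genes assume that most do not change, which is why they served only as alternatives. The code was checked on simulated data. Means and SDs are of normalized reads. A group with no counts was given a floor of 3 counts over the group, and ratios with 1 to 3 counts have exact 95% intervals for counting error. Positions are 1-based, and all 32 members matched GENCODE M21 on GRCm38. Identity of promoters was computed with Biopython 1.88.

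The members, lists and motifs were chosen with earlier results of these data known. Named with values were Lor, Ivl, Lce6a, Kprp, the fused-type and Tgm genes, up to 6 Lce1 and 6 Lce3 genes with the largest change and any other member, where the higher group averaged at least 50 normalized reads, and up to 3 genes per list with the smallest adjusted p. Other genes named were chosen after their values were seen. From the list of regulators, 2 genes are not reported here. Alternatives were TMM, RLE and upper quartile factors, other filters, DESeq2 1.42.0, limma-voom (limma 3.58.1), sex, sample number or run of animal numbers as a term, each library left out, adjustment over 19407 genes, and stricter thresholds.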

Additional observations from a re-analysis of the deposited data

Results flagged for a closer look

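In 5 of the 32 genes the highest KA library stood apart from the other 3, by a gap to the next library that exceeded 0.829 of the range of the 4 KA libraries (Dixon's limit). Chance flags about 1 in 20 groups, or 1.6 of 32. In Tgm1, KA 1 stood apart with a gap of 0.837 of the range. In Lce1b, KA 2 did so with a gap of 0.871. In Lce3b, KA 1 held 22 of the 28 reads in KA, a gap of 0.845. In Gm43735, KA 4 stood apart with a gap of 0.859, on counts of 3, 2, 2 and 8. In Gm4858 the gap was 1, since a single read in KA 4 was the only one in KA. In Tgm1, Lce1b, Gm43735 and Gm4858 the groups did not overlap with that library included.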

How the results depend on the processing

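Each of the 28 tested genes was refitted under 18 alternatives, giving 498 values: 489 kept their direction and call, 9 kept the direction only, and 0 reversed. The 9 belonged to Hrnr (edgeR adjusted p = 0.052 with TMM, 0.0652 with RLE and 0.0519 with upper quartile factors, 0.0617 when adjusted over 19407 genes, 0.0894 without control 1), Gm9774 (0.0596 over 19407 genes, 0.0628 without control 1, 0.0845 without control 2) and Pglyrp3 (0.0589 without control 2). With a log2 fold change of at least 1 required, all listed genes gave 1375 higher and 1420 lower. Leaving out 1 library at a time gave 3197 to 3476 higher and 2836 to 3170 lower over all listed genes, and 12 to 14 higher and 14 lower members. Without KA 1, KA 2 or KA 4, Lce3d and Lce3f had too few reads to be tested. limma-voom gave Tgm7 -6.42, Lce1g 3.89, Lce3d 4.35 and Lce3f 3.81, and a term for the runs of animal numbers gave Flg2 -4.98. The cause of these shifts was not tested.

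The deviations of same-numbered libraries from their group means correlated at -0.192, 0.129 and -0.0969. Such deviations cancel out within each small group, so these values cannot show whether sample numbers pair the libraries. No control shares the number of KA 4, so that library did not inform the change fitted with a replicate block by sample number. The block by sample number gave 14 higher and 14 lower members and 3207 higher and 2913 lower listed genes. It moved Tgm7 to -6.10, Gm43735 to -3.77 and Flg2 to -5.02 on the log2 scale. Low counts limit Lce3a, Lce3b, Lce3e and Gm4858 most.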
